A study of Mus musculus with 14 samples.

Results

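This report covers what canagliflozin treatment and caloric restriction had in common in the liver of mice on a high-fat diet (HFD). The 10 arrays of the treated mice were compared with the 4 arrays of the HFD controls, which together are all 14 arrays of the series, and the 2 treated arms carried equal weight. Arrays were placed in their groups by title, and no measured value entered that choice. All mice were male C57Bl/6J, were put on a diet with 60% fat at 6 weeks of age, and ate it freely for 4 weeks to become obese. For another 4 weeks the controls (n = 4) stayed on that diet, the canagliflozin arm (n = 5) received the diet with canagliflozin, and the caloric restriction arm (n = 5) was fed 15% to 30% less so that its weight matched the canagliflozin arm. The sample labels give a dose of 30 mg/kg and the treatment protocol 25 to 30 mg/kg. No lean group is among the samples, so the comparison describes obese mice under either intervention against obese mice that stayed on the diet. The labels count mice per group but do not say array by array that each is a separate mouse, so the p-values measure the spread between these arrays.

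Canagliflozin inhibits the glucose transporter SGLT2 of the kidney, so that glucose is lost in the urine and the animal loses energy without eating less. Caloric restriction withholds that energy at the mouth. Both lower the carbohydrate reaching the liver, which then makes more glucose and burns more fat, and which makes its large output of plasma proteins in the endoplasmic reticulum (ER). In the ER, chaperones such as BiP fold new proteins, disulfide isomerases form their cross-links, and derlins pass failed proteins out for degradation. The transcription factors XBP1 and ATF6 raise these genes when folding demand is high.

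No single gene separated both arms from the controls once all genes were taken into account, and the differences described here did not pass the test. Most measured genes of protein folding in the ER had lower means in treated mice. Single genes of omega oxidation and of the fasting response, such as Cyp4a31 and Igfbp1, had higher means. Of 22180 genes, limma called 0 at an adjusted p under 0.05 (0% of those tested), and the smallest adjusted p was 0.220. At an unadjusted p under 0.05 there were 1119 genes (5.05%), of which 569 (2.57%) were higher and 550 (2.48%) lower, where 1109 are expected by chance. The p-values were spread evenly over their whole range, with 1041 to 1178 genes in each of the bins. Values are log2 RMA values, which RMA (robust multi-array average) makes by correcting background, giving all arrays the same distribution and summarising the probes of each probe set. A difference of 1 on this scale is 2-fold, and a difference shared by all RNA of a sample would not show. The 95% confidence interval of the median gene reached 0.22 to each side, and 7 genes differed by more than 1.

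**Figure D1:**
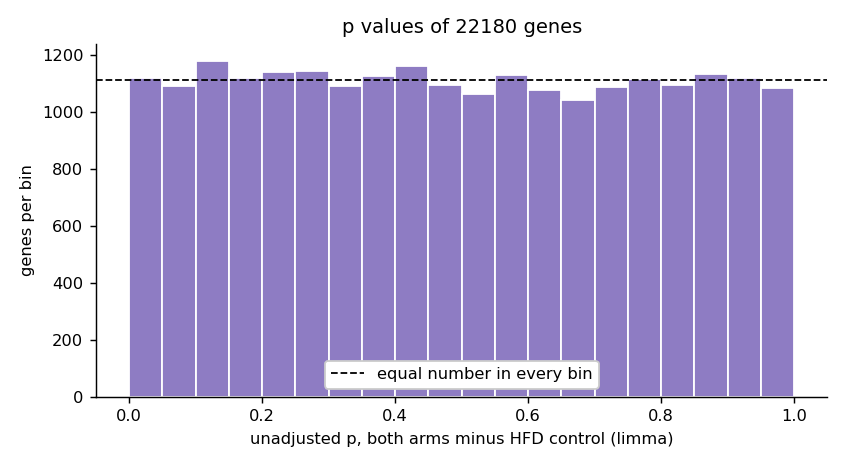
Number of genes (y axis) in each bin of unadjusted limma p-value (x axis) for both arms minus HFD control over 22180 genes. The lowest bin holds 1119 genes, close to the 1109 expected by chance, and no bin stands out.

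Each arm set against the same 4 controls gave 0 called genes too. At an unadjusted p under 0.05 there were 1444 genes (6.51%; 3.21% higher and 3.3% lower) for canagliflozin and 872 (3.93%; 2.06% higher and 1.87% lower) for caloric restriction. The smallest adjusted p in limma was 0.133 for canagliflozin and 0.358 for caloric restriction. Between the 2 arms, 1 gene was called (0.00451% of those tested) and 1341 (6.05%; 3.07% higher and 2.98% lower with canagliflozin) had an unadjusted p under 0.05. That gene was Rtkn, and it is described at the end.

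The array medians lay between 4.07 and 4.13, which RMA brings about by giving all arrays the same distribution. Pairwise correlations lay between 0.971 and 0.985. Neither measures the quality of the RNA or the arrays. Albumin averaged 14.01, and the mean of the 11 measured hepatocyte markers lay between 12.55 and 12.64 in every array. The 11 marker lists with at least 3 measured members had median differences between -0.05 and 0.07. Of their 101 measured members, 3 had an unadjusted p under 0.05, beside 5.05% of all genes. Macrophage markers had medians of 0.12 with canagliflozin and -0.13 with caloric restriction, and 12 of 12 were higher with canagliflozin than with caloric restriction. Their median for both arms was -0.01, and it ran from -0.10 without control replicate 3 to 0.12 without control replicate 2. The list mean ran from 5.78 to 6.59 in the controls, from 6.07 to 6.54 with canagliflozin and from 5.71 to 6.34 with caloric restriction, so that the groups overlapped. In whole tissue, fewer cells of a type and less RNA per cell cannot be told apart.

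Of the genes with higher means, Cyp4a31 came first by limma's p. It encodes a cytochrome P450 of the family that hydroxylates fatty acids at their omega end, an established target of the fatty acid sensor PPARα. In the controls Cyp4a31 read 5.42, 5.96, 6.54 and 4.90. In the canagliflozin arm it read 7.61, 7.57, 6.68, 8.60 and 7.66, and in the caloric restriction arm 6.59, 6.31, 6.47, 6.66 and 7.11. Every canagliflozin array lay above the highest control, whereas the caloric restriction arrays lay around it, and 8 of 10 treated arrays were above all controls. The mean of both arms was higher by 1.42 ± 0.28 (SE), or 2.68-fold, with an adjusted p of 0.629. The difference was 1.92 with canagliflozin and 0.92 with caloric restriction, and the 95% interval of the difference between the arms, 0.36 to 1.63, did not include 0. Its relative Cyp4a14 differed by 2.20 ± 0.75, or 4.59-fold, on a wider spread, with control values of 5.40, 6.71, 8.94 and 8.31. Cyp4a genes are close copies of each other, and probes may not tell them apart fully.

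Elovl3 encodes an enzyme that elongates very long fatty acids. It read 9.32, 9.46, 10.51 and 10.02 in the controls, 10.75, 11.03, 10.87, 11.45 and 10.88 with canagliflozin, and 9.78, 10.56, 10.40, 11.78 and 10.66 with caloric restriction. Again all canagliflozin arrays and most caloric restriction arrays exceeded the highest control, 8 of 10 in all. The mean of both arms was higher by 0.99 ± 0.26, or 1.98-fold (limma, unadjusted p = 0.00158, adjusted p = 0.977). The arms differed by 0.36, with an interval from -0.24 to 0.95.

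Carmil1 encodes a regulator of actin filament capping. Control values were 6.54, 6.29, 6.32 and 6.21. Canagliflozin values were 6.99, 7.04, 7.08, 6.85 and 6.90, and caloric restriction values 6.48, 6.82, 6.56, 6.49 and 6.47. The canagliflozin arrays stood clear of the controls, and 3 of the 5 caloric restriction arrays fell among them. The mean of both arms was higher by 0.43 ± 0.09 (adjusted p = 0.629 in limma), made of 0.63 in the canagliflozin arm and 0.22 in the other. The interval of the difference between arms ran from 0.21 to 0.61.

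Ddit4 encodes REDD1, a brake on mTORC1 signalling that fasting and glucocorticoids raise. It read 6.07, 5.84, 6.72 and 5.75 in the controls, 6.56, 6.27, 7.09, 7.66 and 7.43 with canagliflozin, and 6.97, 6.58, 6.17, 7.38 and 7.50 with caloric restriction. Treated arrays ranged widely, and 6 of 10 exceeded the highest control. Both arms contributed nearly alike, at 0.91 and 0.82, to a mean difference of 0.87 ± 0.26, and the interval of the difference between the arms ran from -0.50 to 0.67.

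The 12 highest genes by p were taken from those with a mean of at least 5 and both arms on the same side. Unnamed models, small RNAs and receptor genes were left out. Lysmd3, a membrane protein gene with a LysM domain, was the 1 gene of these 12 whose 10 treated arrays all lay above all controls. The controls read 7.16, 7.11, 7.13 and 7.08. The canagliflozin arrays read 7.32, 7.35, 7.45, 7.57 and 7.49 and the caloric restriction arrays 7.29, 7.40, 7.23, 7.40 and 7.30. The difference was 0.26 ± 0.07, small in size but on very even controls. The other genes among these 12 included Got1, which encodes the cytosolic aspartate transaminase and differed by 0.66 ± 0.20. Mdh2, the mitochondrial malate dehydrogenase, differed by 0.25 ± 0.08. Slc7a2, a transporter of arginine and lysine, differed by 0.37 ± 0.12. Psmd9, Rnf146, Gtf2e1 and Tmem82 differed by 0.26 to 0.37. In 8 of these 12 genes the interval of the difference between the arms held 0, and in 10 the canagliflozin difference was the larger.

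**Figure D2:**
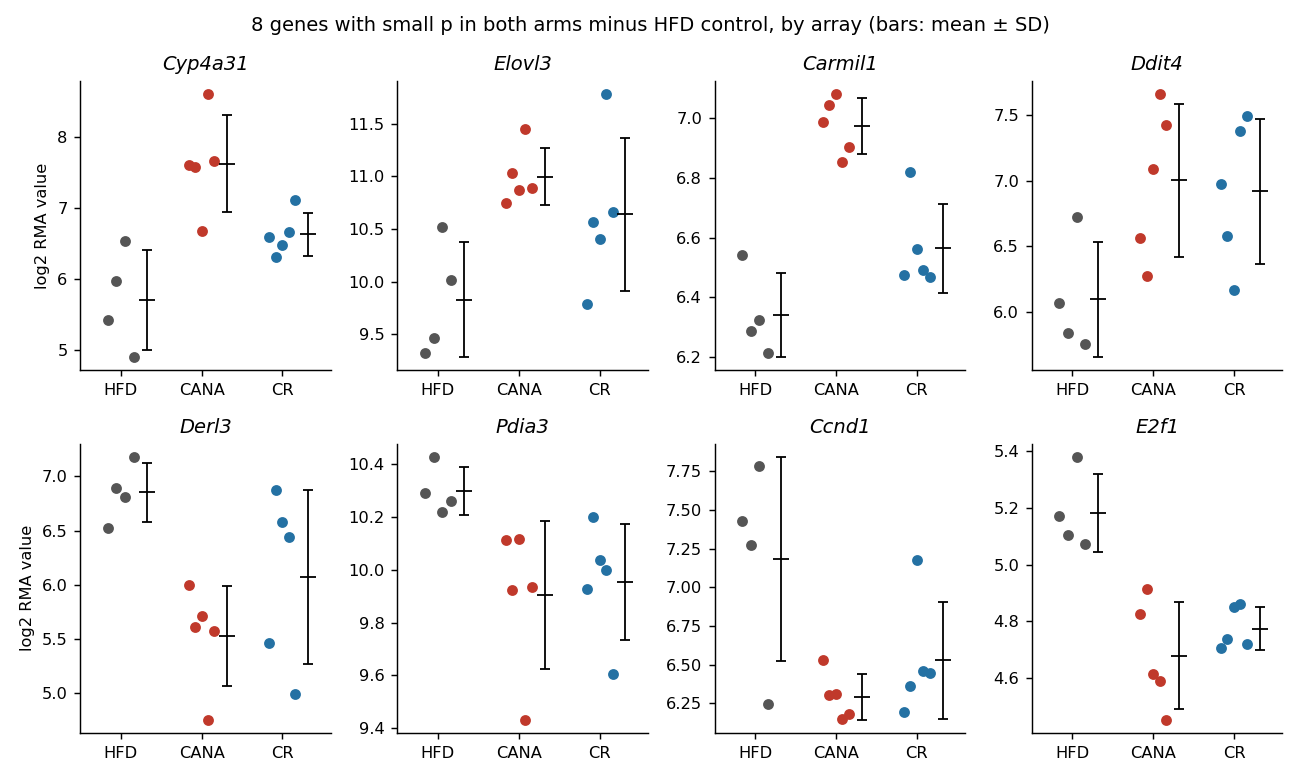
Log2 RMA value (y axis, scale differs by panel) of 8 genes in each array of the HFD controls (HFD, n = 4), canagliflozin (CANA, n = 5) and caloric restriction (CR, n = 5); points are arrays and bars the mean ± SD. In Pdia3 and E2f1 all treated arrays lie below the controls, and in the other 6 genes at least 1 treated array lies among them.

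Of the genes with lower means, those of the ER stood together. The list of ER chaperones, folding enzymes and ER-associated degradation had 26 genes, of which 25 were measured. Of these, 22 had lower and 3 higher means, and 0 were called. The median over the list was -0.20, against 0.00 over all genes, of which 49.7% were lower and 50.3% higher. In the arms it was -0.23 and -0.17, and 20 members were lower in both. At an unadjusted limma p under 0.05, 10 members (40%) were lower, beside 2.48% of all genes, and 1 was higher. Against the same controls, 10 members were lower at that p with canagliflozin (3.3% of all genes) and 3 with caloric restriction (1.87%). Members of such a list move together from array to array, so they are not 25 separate observations, and earlier results of these data had already shown this pattern in canagliflozin.

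The promoters of these genes are known for the ER stress response element (ERSE), a CCAAT box followed after 9 bases by CCACG, which XBP1 and ATF6 act through. Windows from 250 bases before to 50 bases after each start (RefSeq, GRCm38.p6) were available for 21 of the 26 list members. The element, CCAAT and CCACG with any 9 bases between, searched on both strands, occurred in 10 of those 21 and in 37 of all 27025 genes (0.137%). Of these 10, Canx, Dnajc3, Ero1b and Hsp90b1 are not shown. For the others the element is given with the fixed letters in capitals and read along the strand that carries it.
Derl3: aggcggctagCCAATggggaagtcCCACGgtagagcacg
Creld2: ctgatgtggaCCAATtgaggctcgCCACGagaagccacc
Pdia6: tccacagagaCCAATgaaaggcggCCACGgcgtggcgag
Calr: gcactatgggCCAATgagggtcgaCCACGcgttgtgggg
Hspa5: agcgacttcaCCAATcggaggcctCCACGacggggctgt
Syvn1: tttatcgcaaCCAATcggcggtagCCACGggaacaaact

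These lie at chr10:75893232-75893270 for Derl3, chr15:88819510-88819548 for Creld2, chr12:17266481-17266519 for Pdia6, chr8:84847065-84847103 for Calr, chr2:34772015-34772053 for Hspa5 and chr19:6046522-6046560 for Syvn1. Calr is a minus-strand gene and the others are plus-strand genes. The element was on the strand opposite to the gene in Derl3, Creld2 and Calr, and on the gene's own strand in the other 3. All 6 were upstream of the start, with the end of the element from 25 bases (Syvn1) to 143 bases (Calr) before it. The spacer between the 2 fixed blocks differed from gene to gene.

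Derl3, a derlin that ER stress raises, had the largest difference of the list. Control arrays read 6.53, 6.90, 6.81 and 7.18. Canagliflozin arrays read 6.00, 5.61, 5.71, 4.76 and 5.57, and caloric restriction arrays 5.46, 6.88, 6.58, 6.45 and 4.99. All canagliflozin arrays were below the lowest control, while 2 caloric restriction arrays, replicates 2 and 3, lay among the controls. The mean of both arms was lower by 1.05 ± 0.28 (SE), a 2.07-fold difference (limma, unadjusted p = 0.00145, adjusted p = 0.977). It was -1.32 with canagliflozin and -0.78 with caloric restriction, and the arms differed by -0.54 with an interval from -1.17 to 0.09.

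Pdia3 encodes ERp57, the disulfide isomerase that works with calnexin and calreticulin on glycoproteins. The controls read 10.29, 10.43, 10.22 and 10.26. With canagliflozin the values were 10.11, 9.92, 10.11, 9.43 and 9.93, and with caloric restriction 9.93, 10.20, 10.04, 9.998 and 9.61. All 10 treated arrays were below all controls, although the highest treated array came within 0.02 of the lowest control. The difference was -0.37 ± 0.12, at -0.39 and -0.34 in the 2 arms.

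Creld2 encodes a secreted ER stress protein with isomerase activity. It read 9.15, 8.97, 8.70 and 8.10 in the controls, 8.26, 7.78, 8.05, 7.78 and 8.13 with canagliflozin, and 7.89, 8.88, 8.05, 8.63 and 7.49 with caloric restriction. Control replicate 4 was as low as the treated arrays, and 6 of 10 treated arrays were below it. The difference was -0.64 ± 0.21, or 1.56-fold.

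The other disulfide isomerases and the chaperones had lower means as well. These genes were described after their values were seen. Sdf2l1, a partner of BiP, differed by -0.54 ± 0.22 with 8 of 10 treated arrays below all controls. Hyou1, a large ER chaperone of the HSP70 family, differed by -0.54 ± 0.25. Pdia6 differed by -0.37 ± 0.15 and P4hb, which encodes protein disulfide isomerase itself, by -0.17 ± 0.07 with 9 of 10 arrays below. Calr, the calcium-binding chaperone calreticulin, differed by -0.30 ± 0.13, and its membrane partner Canx by -0.16 ± 0.08.

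Hspa5 encodes BiP, the main ER chaperone of the HSP70 family, and its groups overlapped more. It read 8.54, 8.66, 8.56 and 8.17 in the controls, 8.23, 8.19, 8.57, 7.84 and 8.29 with canagliflozin, and 8.05, 8.82, 8.44, 8.62 and 7.73 with caloric restriction. Only 3 of 10 treated arrays were below the lowest control and 1 was above the highest. The difference was -0.20 ± 0.17 (limma, unadjusted p = 0.241), and it came to -0.31 without control replicate 4 and to -0.13 without caloric restriction replicate 5. Hsp90b1, which encodes the ER member of the HSP90 family, differed by -0.24 ± 0.14.

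The regulators of the response did not all have lower means. Xbp1 differed by -0.29 ± 0.12 and was the one list member whose arms differed beyond the 95% interval, at -0.44 with canagliflozin and -0.13 with caloric restriction (interval of the difference -0.58 to -0.03). Atf6 had a difference of 0.11 ± 0.09 and Herpud1, an ER membrane protein of the degradation machinery, one of 0.07 ± 0.09. Without control replicate 2 these came to 0.05 and 0.003, and without control replicate 3 to 0.19 and 0.16. Dnajb9, a BiP cochaperone and a target of XBP1, went the other way, at 0.41 ± 0.19 with 5 of 10 treated arrays above all controls. Among the degradation genes Derl1 differed by -0.19 ± 0.09, Syvn1, the ubiquitin ligase of the pathway, by -0.12 ± 0.13, and its partner Sel1l by -0.10 ± 0.10. Syvn1 came to -0.05 without control replicate 1 or caloric restriction replicate 5, and Sel1l to -0.03 without control replicate 3 and -0.15 without control replicate 2.

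**Figure D3:**
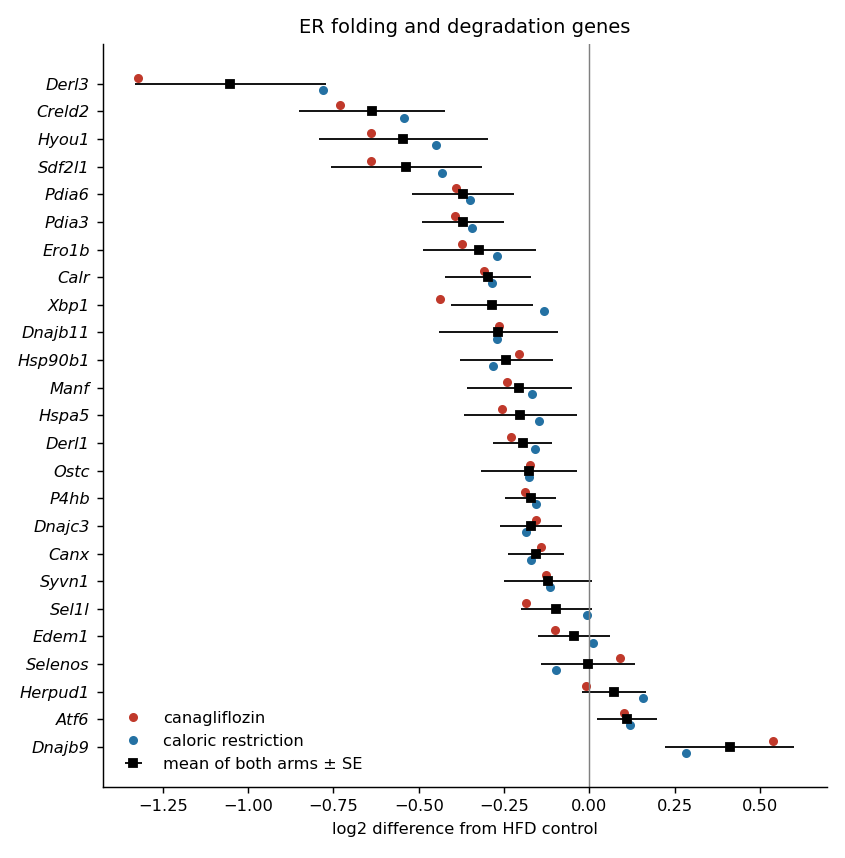
Difference from HFD control on the log2 scale (x axis) for the 25 measured genes of ER folding and degradation (y axis); black squares are the mean of both arms ± SE, red points canagliflozin and blue points caloric restriction. Black squares lie left of 0 for 22 genes, from -1.05 for Derl3, and Dnajb9 lies furthest to the right at 0.41.

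Averaged over its members, the folding list gave 9.09, 9.01, 8.96 and 8.88 in the 4 controls. It gave 8.84, 8.70, 8.84, 8.44 and 8.75 with canagliflozin and 8.62, 9.10, 8.84, 8.97 and 8.41 with caloric restriction. All canagliflozin arrays were below the lowest control, whereas 2 caloric restriction arrays, replicates 2 and 4, lay within or above the control range. Caloric restriction replicate 5, the lowest array of this list, was also the lowest for macrophage markers, at 5.71, and the part of that in the result was not tested. The count of members lower at an unadjusted p under 0.05 depended on single arrays. It was 3 without control replicate 1, 6 without control replicate 2 or 3, and at most 13, without caloric restriction replicate 2, while the list median stayed between -0.27 and -0.16.

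Of the 29 measured genes with an ERSE in the promoter window, the 10 on the folding list were all lower, with a median of -0.27 and a range from -1.05 to -0.12. The 19 outside it had 6 lower members and a median of 0.14. Many of these 19 were dim, with means down to 2.09, where the 10 on the list had means from 6.10 to 11.24. Those of the 19 with a mean of at least 5 lay on both sides of 0, from -0.11 to 0.43. The sets thus also differed in brightness, and the part of that was not tested. The 10 folding list members with a promoter window and a measured value but no ERSE had 8 lower members and a median of -0.13. The related element ERSE-II, ATTGG and CCACG with any 1 base between, was in 2 of 21 list members and in 0.0444% of genes. The unfolded protein response element TGACGTGG was in 0 of 21 members and in 0.714% of genes. A match describes only the letters of the window.

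The neighbouring list for protein entry and vesicle exit, with signal peptidase, translocon and COPII coat genes, leaned the same way by little. Of 27 measured members 24 were lower, with a median of -0.05 and 0 at an unadjusted p under 0.05. Spcs2, a signal peptidase subunit, differed by -0.24 ± 0.12, and by -0.14 without control replicate 1. Its dimmer probe set differed by -0.37 ± 0.09. The list of the integrated stress response, the arm of ER stress signalling that runs through ATF4, had 10 of 16 members higher and a median of 0.02, which was -0.01 without control replicate 4, 0.05 without control replicate 3 and 0.11 over members with a mean of at least 6. Its effector Ddit3 (CHOP) differed by -0.11 ± 0.09 and Atf4 by 0.11 ± 0.09, and without control replicate 2 these came to -0.18 and 0.07.

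Some genes of the cell cycle also had lower means. E2f1, a transcription factor that starts DNA replication, was described after its values were seen. It is dim on this array and read 5.17, 5.11, 5.38 and 5.07 in the controls, 4.82, 4.92, 4.61, 4.59 and 4.45 with canagliflozin, and 4.70, 4.74, 4.85, 4.86 and 4.72 with caloric restriction. All 10 treated arrays were lower than all controls, with a gap of 0.16. The difference was -0.46 ± 0.09 (adjusted p = 0.629 in limma), at -0.50 and -0.41 in the arms.

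Ccnd1 encodes cyclin D1, which drives cells out of rest. Control arrays read 7.42, 7.27, 7.79 and 6.24, canagliflozin arrays 6.53, 6.30, 6.31, 6.15 and 6.18, and caloric restriction arrays 6.19, 6.36, 7.18, 6.46 and 6.45. Control replicate 4 was as low as the treated arrays and caloric restriction replicate 3 came close to the other controls, while the remaining arrays of the groups stood apart. The difference was -0.77 ± 0.21, or 1.71-fold. Over the cell cycle list 15 of 23 members were lower with a median of -0.06. At an unadjusted p under 0.05, 4 (17.4%) were lower, beside 2.48% of all genes. Beside Ccnd1 these were the replication helicase subunits Mcm6 (-0.35 ± 0.11), Mcm4 (-0.21 ± 0.09) and Mcm5 (-0.18 ± 0.08), all dim. The median was 0.00 without control replicate 2. Cdkn1a, the cell cycle inhibitor p21, differed by 0.66 ± 0.44 and by 0.44 without control replicate 1.

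The remaining genes among the 12 with lower means, taken by p under the same limits as the higher ones, were on none of the lists. Nucb2, which encodes the calcium-binding protein nucleobindin 2, differed by -0.47 ± 0.12 with 9 of 10 treated arrays below all controls. Trp53cor1, a long noncoding RNA of the p53 response, differed by -0.40 ± 0.09, and Fgfr3, a fibroblast growth factor receptor, by -0.48 ± 0.14. Rbm12b1 differed by -0.61 ± 0.15, and Hmgxb4, Rassf8, Rprd1a, Heyl, Cad and Ttll12 by -0.23 to -0.40. Cad encodes the enzyme that starts pyrimidine synthesis.

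Of 14 measured genes that insulin represses or FOXO factors raise, 11 were higher, and the median was 0.12 (0.19 without control replicate 3). At an unadjusted limma p under 0.05, 4 (28.6%) were higher, beside 2.57% of all genes. At that p 5 were higher and 1 lower with canagliflozin (3.21% and 3.3% of all genes). With caloric restriction 1 was higher and 0 were lower (2.06% and 1.87%). Igfbp1, a secreted binder of insulin-like growth factors that insulin shuts off, read 8.27, 8.92, 8.65 and 8.72 in the controls. It read 10.39, 11.36, 8.71, 12.49 and 10.68 with canagliflozin and 8.69, 8.63, 8.74, 10.29 and 10.54 with caloric restriction. Only canagliflozin replicates 1, 2, 4 and 5 and caloric restriction replicates 4 and 5 exceeded the controls, and they did so widely. The mean difference was 1.41 ± 0.49, or 2.66-fold, at 2.09 and 0.74 in the arms, whose difference had an interval from 0.26 to 2.44.

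Of 11 measured genes of gluconeogenesis 6 were higher and 5 lower, with a median of 0.05 that was -0.03 without control replicate 2 and 0.09 without control replicate 3. At an unadjusted limma p under 0.05, 4 were higher for both arms together (36.4%, beside 2.57% of all genes). At that p 4 were higher with canagliflozin (3.21% of all genes) and 0 with caloric restriction (2.06%). The 5 lower members, Mdh1, Foxo1, Gpt, Creb3l3 and Pcx, differed by -0.06 to -0.01. Beside Got1, the 4 included Ppargc1a, G6pc and Pck1. Ppargc1a, a coactivator of fasting genes, differed by 0.71 ± 0.26, G6pc, which releases glucose from glucose 6-phosphate, by 0.39 ± 0.14, and Pck1, which makes phosphoenolpyruvate, by 0.24 ± 0.09 with 8 of 10 treated arrays above all controls. In each of these 3 the interval of the difference between the arms lay above 0, with canagliflozin the larger. Lepr, the leptin receptor, differed by 1.18 ± 0.41, at 1.90 with canagliflozin and 0.45 with caloric restriction. Irs2, an insulin receptor substrate, differed by 0.44 ± 0.25 with 5 of 10 treated arrays above the controls.

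Glucocorticoid-responsive genes had higher means in 14 of 16 measured members, with a median of 0.14 and of 0.17 and 0.16 in the arms. The median was 0.09 without control replicate 1. Beside Ddit4, only Tat, the first enzyme of tyrosine breakdown, had an unadjusted p under 0.05, at 0.31 ± 0.11. Together they make 12.5% of the measured members, beside 2.57% of all genes higher at that p. Per1, a clock gene that glucocorticoids raise, differed by 0.31 ± 0.15 and by 0.15 without control replicate 1. Pdk4, the kinase that holds back pyruvate oxidation, differed by 0.74 ± 0.43 and by 0.44 without canagliflozin replicate 4, which read 8.90. The 2 arrays with the highest mean of this list, canagliflozin replicate 4 at 9.01 and caloric restriction replicate 5 at 8.99, were also the 2 with the lowest mean of the folding list, at 8.44 and 8.41. The 2 lists share 0 genes, and the part of stress or time of day in these values was not tested.

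In the urea cycle, which disposes of the nitrogen of amino acids, 6 of 8 genes were higher. Ass1, which makes argininosuccinate, differed by 0.38 ± 0.13 and Slc25a15, the ornithine carrier, by 0.23 ± 0.09. Over the list of amino acid breakdown 18 of 27 were higher with a median of 0.07. At an unadjusted p under 0.05, 2 were higher (7.41%, beside 2.57% of all genes), among them Got1. In the arms 7 were higher at that p with canagliflozin (3.21% of all genes) and 0 with caloric restriction (2.06%). For the urea cycle genes these counts were 3 and 0. Mitochondrial fatty acid oxidation had 17 of 19 members higher by little, with a median of 0.06 (0.02 without control replicate 1). It was 0.15 in the canagliflozin arm and 0.00 in the caloric restriction arm. Acot2, a mitochondrial thioesterase of fatty acyl-CoA, differed by 0.68 ± 0.31, and Cpt1a, which admits fatty acids to the mitochondrion, by 0.09 ± 0.12. Without control replicate 1 these came to 0.45 and 0.02. The list of peroxisomal and omega oxidation, which holds the Cyp4a genes, had 13 of 18 members higher and a median of 0.08. Other PPARα targets had 10 of 17 higher and a median of 0.21. Without control replicate 1 these medians were 0.03 and 0.04. In the canagliflozin arm the medians of the 2 lists were 0.12 and 0.29, and in the caloric restriction arm 0.06 and 0.07. With canagliflozin 4 and 7 members were higher at an unadjusted limma p under 0.05 (3.21% of all genes). One list, the other PPARα targets, also had 1 member lower (3.3%). With caloric restriction 1 and 0 members were higher (2.06%).

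**Figure D4:**
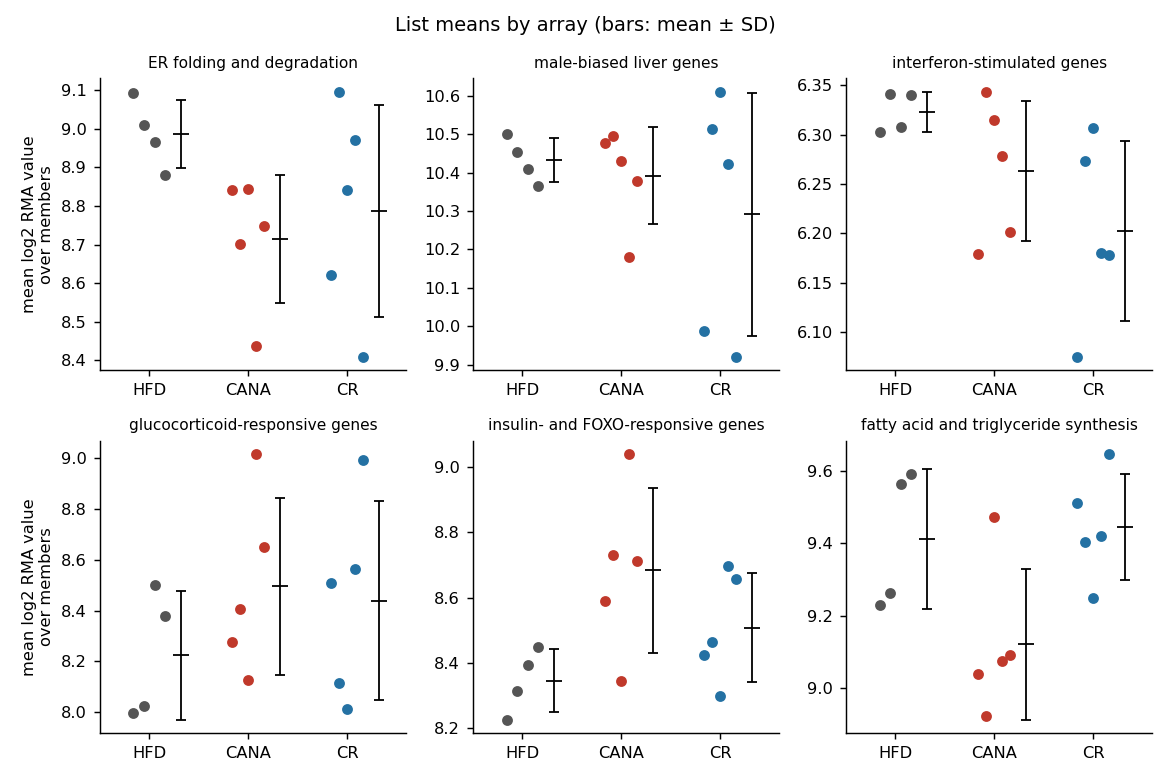
Mean log2 RMA value over the measured members of 6 gene lists (y axis, scale differs by panel) in each array of the HFD controls (HFD, n = 4), canagliflozin (CANA, n = 5) and caloric restriction (CR, n = 5); points are arrays and bars the mean ± SD. For the folding list all CANA arrays, from 8.44 to 8.84, lie below the lowest control at 8.88, and the CR arrays spread from 8.41 to 9.10.

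The male-biased liver genes, which growth hormone pulses keep high in males, had lower means in 15 of 18 measured members, with a median of -0.14. No member was lower at an unadjusted p under 0.05, and Elovl3, which is also on this list, was higher. Hsd3b5, a steroid dehydrogenase, differed by -0.44 ± 0.30 (-0.29 without control replicate 2) and C8a, a complement component, by -0.20 ± 0.12. Caloric restriction replicates 1 and 5, at list means of 9.99 and 9.92, were the lowest arrays, and the controls lay between 10.37 and 10.50. Caloric restriction replicates 2 and 3, at 10.51 and 10.61, lay above every control. The median of the list means was 10.43 in the controls, 10.43 with canagliflozin and 10.42 with caloric restriction. Interferon-stimulated genes were lower in 17 of 20 members with a median of -0.12 and 0 at an unadjusted p under 0.05. With canagliflozin 13 members were lower with a median of -0.04, and with caloric restriction 17 with a median of -0.16. In the arms 1 and 2 members were lower at that p (3.3% and 1.87% of all genes). Stat2, a transcription factor of the interferon response, differed by -0.30 ± 0.15 for both arms. Its list mean ran from 6.30 to 6.34 in the controls, from 6.18 to 6.34 with canagliflozin and from 6.08 to 6.31 with caloric restriction, so that the groups overlapped.

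For cholesterol synthesis the list medians of the 2 arms lay on opposite sides of 0. For fat synthesis the list median lay below 0 with canagliflozin and near 0 with caloric restriction, where 11 members were higher and 11 lower. The median of the fat synthesis list for both arms ran from -0.17 without control replicate 1 to -0.02 without control replicate 3. Fasn, the fatty acid synthase, ran from 9.78 to 10.51 over the control arrays, from 8.31 to 10.19 with canagliflozin and from 9.61 to 10.14 with caloric restriction. Of the canagliflozin arrays only replicate 3 lay among the controls, and of the caloric restriction arrays only replicate 4 lay below them. The mean of both arms was -0.70 ± 0.24, made of -1.13 and -0.27, and the arms differed by -0.86 with an interval from -1.40 to -0.33.

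Scd1, the stearoyl-CoA desaturase, differed by -1.04 with canagliflozin and by -0.05 with caloric restriction. Pklr, the liver pyruvate kinase, differed by -0.58 and 0.24, and the difference between the arms was -0.82 with an interval from -1.22 to -0.43. Thrsp, a lipogenic gene of carbohydrate feeding, differed by -0.73 and 0.08. Over the 22 measured genes of fatty acid and triglyceride synthesis the median was -0.25 with canagliflozin and 0.03 with caloric restriction, and in 10 of them the interval of the difference between the arms did not hold 0. That was so in 1 of the 25 folding genes and in 6.05% of all genes, those with an unadjusted limma p under 0.05 between the arms. For cholesterol synthesis the medians were -0.28 and 0.10, and the interval of the difference between the arms did not hold 0 in 2 of 19 genes. Its list mean ran from 7.64 to 8.80 over the controls, and its median for both arms went from -0.35 without control replicate 1 to 0.08 without control replicate 3. The adjusted p of the difference between the arms was at least 0.487 in limma for every gene of these 3 lists.

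**Figure D5:**
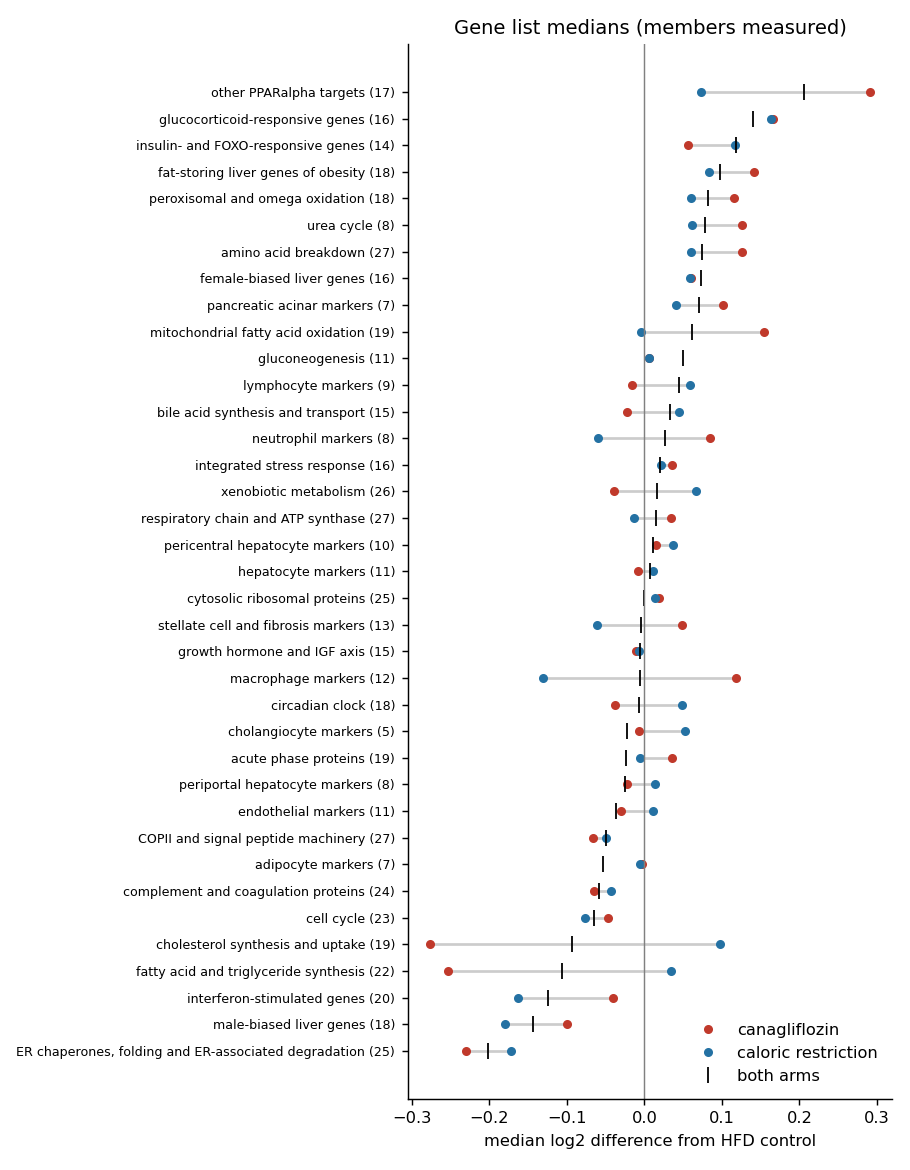
Median log2 difference from HFD control (x axis) over the measured members of each gene list (y axis, number measured in brackets); red points are canagliflozin, blue points caloric restriction and black marks both arms together. The folding list has the lowest mark at -0.20 with both arms near it. The arms of cholesterol synthesis lie on opposite sides of 0, and for fatty acid synthesis canagliflozin lies below 0 and caloric restriction near it.

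In a small share of genes the treated arrays did not overlap the controls. All 10 treated arrays lay above all 4 controls in 23 genes (0.104%) and below them in 18 (0.0812%). Of the 23, 12 were unnamed models, small RNAs or receptor genes and 3 had a mean of at least 5. Of the 18, 3 were of that kind and 11 had a mean of at least 5. They included Osbpl8, a lipid transfer protein of the ER, at -0.19 ± 0.07, and Golga1, a Golgi protein, at -0.26. Srpk2, a kinase of splicing factors, differed by -0.24 ± 0.08, Tpmt, the thiopurine methyltransferase, by -0.25 ± 0.10, and Trim25, a ubiquitin ligase of antiviral signalling, by -0.23 ± 0.09. Polr3c, a subunit of RNA polymerase III, was among those higher, at 0.17 ± 0.08. These were named after their values were seen.

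The gene with the smallest p of all was Olfr331, an olfactory receptor gene that is dim here, with a mean of 4.27, named after its value was seen. It read 5.40, 5.32, 4.79 and 4.54 in the controls, 4.26, 4.19, 4.24, 3.96 and 3.68 with canagliflozin, and 3.99, 4.41, 3.63, 3.84 and 3.54 with caloric restriction. All treated arrays were lower, and the difference was -1.04 ± 0.17 (adjusted p = 0.220 in limma). It passed the threshold with the deposited position as a covariate (adjusted p = 0.00121) and without caloric restriction replicate 2 (adjusted p = 0.0460).

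The drug's target, Slc5a2, which encodes SGLT2 and belongs to the kidney, had values close to the median of the array, with means of 4.30 in the controls, 4.22 with canagliflozin and 4.35 with caloric restriction. Fgf21, the fasting hormone of the liver, differed by 0.55 ± 0.29, at 0.90 and 0.20 in the arms. The 1 gene called between the arms, Rtkn, read 4.80, 5.02, 4.75, 4.88 and 4.93 with canagliflozin and 5.50, 5.49, 5.65, 5.55 and 5.33 with caloric restriction. The controls read 5.49, 5.33, 5.28 and 5.49, among the caloric restriction arrays. The arms differed by -0.63 with an interval from -0.81 to -0.45 (limma, adjusted p = 0.0264). Rtkn stayed below the threshold in 6 of the 14 fits that left out 1 array and missed it in the other 8, those without control replicate 2, canagliflozin replicates 1, 4 or 5, or caloric restriction replicates 1, 2, 3 or 4.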

How the data were processed

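The deposited values are log2 signals, 1 per probe set and array. The submitters' processing notes name RMA and Affymetrix Expression Console. Labelled cDNA came from 250 ng of total liver RNA (WT Plus protocol) per the labels' protocols. The software version and genome build were not given in the sources used here. All 14 columns were used, and 0 were left unmapped. Precision is limited by the number of arrays. Signal over background was not analysed here.

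The platform annotation gave 1 gene symbol for 23521 of 41345 probe sets, several for 1814 and none for 16010. Of the 1082 genes with more than 1 such probe set, the one with the highest mean was used, which left 22180 genes. Gene identifiers of 21994 matched the RefSeq table, and 0 had another symbol there. No filter on dim values was applied.

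A model with a mean per group was fitted by limma 3.58.1 (R 4.3.3; lmFit, then eBayes) over the 14 arrays, with 11 residual degrees of freedom before moderation. The contrast was the mean of both arms minus HFD control, with each arm and the difference between the arms beside it. P-values were adjusted by Benjamini-Hochberg over all genes, with a threshold of 0.05. Values after ± are standard errors of that fit. The comparisons of each arm share the 4 controls. The fit was tested on simulated data.

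The members, the 26 pathway and 12 marker lists and the naming rule were chosen with earlier results of these data known. Named by rule were, in each direction, the genes called, filled up to 12 by smallest p among genes with a mean of at least 5 and both arms on the same side; the 3 members of each list with the smallest p; the 2 most abundant markers of each marker list; and Slc5a2, Fgf21, Pck1, Fasn, Scd1, Cpt1a, Igfbp1 and Lepr. Unnamed models, small RNAs and receptor families were left out. This gave 139 genes. Others were chosen after their values were seen: Xbp1 and the folding genes beyond Derl3, Pdia3 and Creld2, E2f1, Mcm5, the gluconeogenic genes with lower means, Angptl8, Ppp1r3c, Cdkn1a, Irs2, Pdk4, Pklr, Thrsp, Rtkn, Olfr331 and the genes named for not overlapping the controls. Lists are described by counts and medians.

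Promoter windows were taken from RefSeq (GRCm38.p6). Motifs were searched on both strands by exact match. Alternatives were pooled arms, filters at a mean of 5 or 6, a trended and robust variance, centring of each array on its median, cyclic loess, weighting of arrays, a replicate block, other treatments of probe sets, the deposited position as a covariate, other thresholds and leaving out each array. Whether replicate numbers pair the samples was checked by correlating deviations from the group means.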

Additional observations from a re-analysis of the deposited data

Results flagged for a closer look

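In 18 of 399 combinations of a named gene and a group, 1 array stood further from the others of its group than Dixon's 95% limit, and chance gives about 1 in 20. Of these, 5 were in canagliflozin replicate 4. In that array Pdia3 was low at 9.43, Calr at 10.39, Canx at 10.49 and Dnajb11 at 7.26, and Acot1, a cytosolic thioesterase, was high at 7.72. Without it Pdia3 differed by -0.31, Calr by -0.25, Canx by -0.13 and Dnajb11 by -0.19.

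Caloric restriction replicate 3 was high in Ccnd1 at 7.18 and Fgfr3 at 6.53 and low in Slc5a2 at 3.99. Without it Ccnd1 differed by -0.85 and Fgfr3 by -0.56. Caloric restriction replicate 2 was high in Carmil1 at 6.82, and replicate 4 was low in Rnf135, a ubiquitin ligase gene, at 5.65. Control replicate 1 was low in Sc5d, a cholesterol synthesis gene, at 10.58, in the clock gene Per3 at 6.82 and in the growth hormone receptor Ghr at 8.97.

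Control replicate 2 was low in Ddit3 at 5.64, and control replicate 3 was high in the aldehyde oxidase Aox1 at 8.51. Without the latter Aox1 differed by -0.12 in place of -0.25. Canagliflozin replicate 5 was high in Steap4, a metalloreductase, at 9.38 and low in Osbpl8 at 7.79, and canagliflozin replicate 2 was high in Polr3c at 6.68. Rtkn differed between the arms, at -0.63 for canagliflozin minus caloric restriction, by the limma test of that difference.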

How the results depend on the processing

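With 4 controls and differences this small, single arrays weigh on the counts. Genes called for both arms numbered 0 in the reported fit, 1 (Olfr331) with the deposited position as a covariate, and 0 to 1 when each array was left out in turn. For canagliflozin alone the count was 1 (Carmil1) at a mean of at least 5 and 1 at a mean of at least 6, 1 with the position covariate, and 0 to 12 on leaving out arrays, with 12 without canagliflozin replicate 3. For caloric restriction it was 1 with the position covariate and 0 in every leave-one-out fit. Between the arms it was 0 at a mean of at least 6, 0 over all probe sets, 0 at an adjusted p of 0.01, and 0 to 16 on leaving out arrays, with 16 without canagliflozin replicate 3. Genes at an unadjusted p under 0.05 numbered 449 at a mean of at least 5, 298 at a mean of at least 6, 1907 over all probe sets and 913 to 1267 on leaving out arrays. Genes without overlap numbered 14, 10 and 91 under the first 3 of these settings and 54 to 158 on leaving out arrays. The count of folding members lower at an unadjusted p under 0.05 ran from 3 to 13. The cause was not tested, beyond fewer or more features tested or fewer arrays. Slc5a2, at -0.01, changed sign without caloric restriction replicate 3, canagliflozin replicate 4 or 5 or control replicate 4, and ran from -0.048 to 0.042 over all arrays left out in turn. None of the other 132 genes recomputed changed sign under the alternatives run, and the 45 genes named as cell type markers alone were not recomputed. The dimmer probe set of Lpin2, a phosphatidate phosphatase, differed by 1.28 ± 0.27 where the brighter one differed by 0.28 ± 0.12.

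Over 13 pairs with the same replicate number the correlation of deviations ran from -0.09 to 0.20, and 3 exceeded 0.1. Arrays with unlike numbers were not set beside them, so this check cannot decide whether replicate numbers pair the samples. With the replicate block 1 gene (Olfr331, adjusted p = 0.0394 in limma) was called for both arms, 2 genes between the arms (Angptl8 and Ppp1r3c, with Rtkn not called), and 6 folding members were lower at an unadjusted p under 0.05. Slc5a2 came to 0.0028.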
